A study of Rattus norvegicus with 20 samples.

Results

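The genes described here encode the ligands and receptors of the tumour necrosis factor (TNF) superfamily, measured in blood cells of 2 inbred rat strains on 2 diets. They were taken by name: every gene with a probe set (the group of array probes that measures 1 transcript) annotated to a single symbol that begins with Tnfsf or Tnfrsf, together with Fas, Faslg, Cd40, Cd40lg, Cd70, Lta, Ltb and Ltbr. This gave 30 genes of the 14497 with a probe set of a single symbol, each with 1 probe set. By role they were 13 ligands, 4 receptors with a death domain, 11 receptors without one, 1 decoy receptor (Tnfrsf11b) and 1 other receptor of the family (Tnfrsf26). Tnf itself and the receptor genes Cd27, Relt and Ngfr are not covered by the rule and were taken with the other genes of the pathway. Further family genes, such as the receptor genes Tnfrsf25, Tnfrsf13b and Tnfrsf13c, were not analysed here.

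TNF superfamily ligands are mostly membrane proteins that act as trimers, on the cell surface or after cleavage, and each binds 1 or a few receptors. Receptors with a death domain can recruit adaptor proteins that lead to caspase activation and cell death, whereas receptors without one recruit TRAF proteins and act mainly through NF-κB and MAP kinases. In blood these proteins carry signals between monocytes, T cells, B cells and NK cells, both costimulatory and cytotoxic.

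Male rats of the strains LEW (LEW/Crl) and WKY (WKY/NCrl), 15 weeks old, were fed standard chow (STD) or a hypercaloric cafeteria diet (CAF) for 7 weeks and were fasted for 9 hours before blood was taken from the abdominal aorta. The 4 groups were STD-fed LEW, CAF-fed LEW, STD-fed WKY and CAF-fed WKY rats, with 5 rats in each and 1 Rat Gene 1.0 ST array per rat, 20 arrays in all. The labels name no transgene or drug, and all rats of a strain are nearly identical genetically, so a strain difference is that of 1 pair of inbred strains. Values are log2 signals, on which a difference of 1 is 2-fold, and means are given ± SD with n = 5.

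By the labels the RNA came from mononuclear cells of peripheral blood, but by the methods it came from the monocyte fraction of these that adhered to plastic. The monocyte marker Cd14 had group means of 12.63 to 12.79, and the T cell marker Cd3e had group means of 12.17 to 12.36, so markers of both cell types were present. On STD, 9 of 11 NK cell markers and 10 of 14 neutrophil markers were higher in WKY rats, and on CAF 8 and 5 were. Of the NK cell markers 1 was lower on each diet, and of the neutrophil markers none was. Of the 14 T cell markers 6 were lower in WKY rats on STD and 2 on CAF, and of the 16 monocyte markers 5 were lower on each diet and 2 higher on STD. Of the 11 B cell markers 2 were lower on STD and 1 was higher on CAF. Of the lists for platelets (5 measured), erythroid cells (7) and dendritic cells (7), no more than 2 markers were called in either direction. The neutrophil score, the mean of the markers relative to all 20 arrays, ran from -1.11 to -0.52 in STD-fed LEW rats and from -0.08 to 1.22 in STD-fed WKY rats, and from -0.81 to 0.20 and from -0.10 to 0.80 on CAF. The NK cell score ran from -0.55 to -0.07 and from 0.24 to 0.70 on STD, and from -0.63 to -0.15 and from 0.17 to 0.36 on CAF. The T cell score ran from 0.08 to 0.22 and from -0.22 to 0.02 on STD, and the monocyte score from 0.07 to 0.25 and from -0.20 to 0.06. On STD none of these scores overlapped between the strains, and on CAF the NK cell and monocyte scores did not. A fit with such a score can hardly separate it from strain, so a call lost there cannot be assigned to cell types. In such bulk samples fewer cells of a type and less RNA per cell cannot be told apart. In addition, 4 arrays (STD-fed LEW rats 2 and 3, STD-fed WKY rat 1 and CAF-fed LEW rat 2) had signals of 11.20 to 12.19 for the heat shock gene Hsph1, against 8.99 to 9.45 on the other 16, and the results are also given without them. Probe sequences were not used, so whether sequence variants between the strains lie under the probes was not tested.

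Mean signals of the 30 genes over the 20 arrays ran from 5.33 for the TRAIL receptor gene Tnfrsf10b to 12.75 for Tnfrsf1b, which encodes TNF receptor 2. These signals depend on each probe set's own probes and do not rank the genes by transcript abundance.

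The question of how the strains differ was asked on each diet. On STD, 5 of the 30 genes were higher in WKY than in LEW rats (Tnfsf15, Tnfsf12, Fas, Tnfrsf9 and Tnfrsf17; 5.88% of all probe sets were called higher) and 2 were lower (Tnfrsf21 and Tnfrsf26; 5.38% of all were called lower). On CAF, 2 were higher (Tnfsf15 and Tnfrsf17; 4.24% of all) and 1 was lower (Tnfrsf21; 3.34% of all). A gene was called when its P-value, adjusted over all 28826 probe sets, was under 0.05. Most of the 30 genes lie above the median mean signal. Of the 14413 probe sets there, tested alone, 1426 were higher and 1532 lower on STD, and 1153 and 905 on CAF. On STD 4 of the 30 genes were then called higher and 2 lower. The median difference over the 30 genes was 0.09 on STD and -0.04 on CAF, against -0.0026 and -0.0092 over all probe sets. All 5 WKY rats were above all 5 LEW rats for 5 genes on STD (4.37% of all probe sets) and for 3 on CAF (4.16% of all), and all were below for 0 genes on STD (4.09% of all) and for 1 on CAF (3.64% of all). The strain comparisons on STD and on CAF take their group means from different arrays but share the spread estimated over all 20 arrays. Of the 7 genes called on STD, 3 were called on CAF, with the same sign, where over all probe sets 47.06% were. Of the 30 genes, 18 had the same sign on both diets (60%, against 65.33% of all probe sets). Without the 4 arrays of high Hsph1, 7 genes were higher on STD, with Tnfrsf1b and Tnfsf9 added, and 1 was lower (Tnfrsf26). On CAF 3 were then higher, with Tnfsf9 added, and 1 was lower, Cd40lg in place of Tnfrsf21. Over all probe sets 1545 were called higher and 1479 lower on STD without these arrays, and 1322 and 1017 on CAF.

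**Figure D1:**
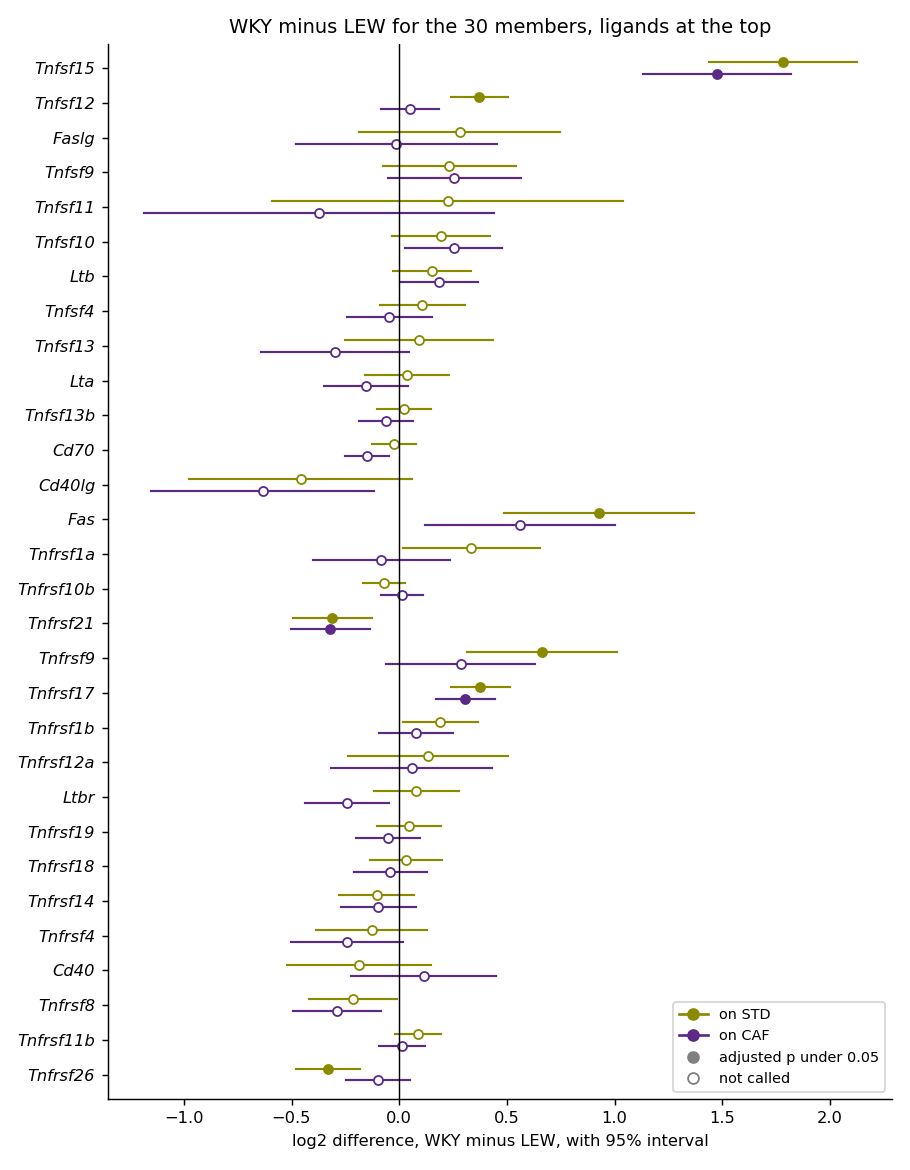
Log2 difference, WKY minus LEW, of each of the 30 genes on STD (olive) and on CAF (purple), with 95% intervals; filled points passed an adjusted p of 0.05. Tnfsf15 stands at 1.78 and 1.47, and most intervals of the other genes reach or cross 0.

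The promoter windows of the 3 genes called on both diets are shown for reference to their regulatory sequence. They were taken from RefSeq (GRCr8, built from the BN strain, so they carry neither LEW nor WKY alleles), run from 250 bases before to 50 bases after the start position that the RefSeq promoter table uses, and are written on the strand of the gene, 5′ to 3′. Capitals mark matches, on either strand, to the motifs searched: an NF-κB consensus, the AP-1 site TGANTCA, the interferon-stimulated response element, the TATA box TATAAA and the GC box GGGCGG. The windows are chr5:82171609-82171908 (minus strand) for Tnfsf15, chr10:4813723-4814022 (minus strand) for Tnfrsf17 and chr9:25451274-25451573 (minus strand) for Tnfrsf21. For Tnfsf15 and Tnfrsf17 that start position lies inside the outermost end of the annotated gene.
Tnfsf15: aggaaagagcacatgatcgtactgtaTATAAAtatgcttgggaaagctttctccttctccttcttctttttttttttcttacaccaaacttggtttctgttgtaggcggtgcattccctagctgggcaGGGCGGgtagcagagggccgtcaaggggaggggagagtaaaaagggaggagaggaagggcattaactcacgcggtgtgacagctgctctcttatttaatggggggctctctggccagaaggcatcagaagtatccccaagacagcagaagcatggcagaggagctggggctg
Tnfrsf17: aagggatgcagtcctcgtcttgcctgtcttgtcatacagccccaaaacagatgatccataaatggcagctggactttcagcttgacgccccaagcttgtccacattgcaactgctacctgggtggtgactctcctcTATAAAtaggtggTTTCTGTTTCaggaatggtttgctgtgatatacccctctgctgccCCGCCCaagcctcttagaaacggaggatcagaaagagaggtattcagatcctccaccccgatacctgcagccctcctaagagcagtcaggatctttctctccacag
Tnfrsf21: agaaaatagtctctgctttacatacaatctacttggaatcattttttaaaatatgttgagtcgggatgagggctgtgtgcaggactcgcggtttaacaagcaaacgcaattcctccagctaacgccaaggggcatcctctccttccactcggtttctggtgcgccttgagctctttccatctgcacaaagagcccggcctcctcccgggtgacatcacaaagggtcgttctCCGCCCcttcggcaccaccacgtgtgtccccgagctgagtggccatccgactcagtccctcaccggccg
The Tnfsf15 window held a TATA box match at positions -224 to -219 from that start position and a GC box match at -122 to -117. The Tnfrsf17 window held a TATA box match at -114 to -109, an interferon-stimulated response element match at -101 to -92 and a GC box match at -56 to -51. The Tnfrsf21 window held a GC box match at -19 to -14. The NF-κB consensus was matched in none of these 3 windows. It was matched in those of Cd70, Lta, Ltb and Tnfrsf8, 4 of the 21 genes with a window, and in 4.18% of all 33469 windows. Over all windows the AP-1 site was matched in 7.33%, the response element in 3.92%, the TATA box in 14.2% and the GC box in 33.1%. A match describes letters only and is not evidence of binding.

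Among the ligands, Tnfsf15 had the largest strain difference on both diets. It encodes TL1A, a cytokine of monocytes, dendritic cells and endothelial cells that costimulates T cells through the receptor encoded by Tnfrsf25. In STD-fed rats 1 to 5 the signals were 7.90, 8.22, 7.75, 7.53 and 8.31 in LEW and 9.85, 9.77, 9.73, 9.56 and 9.70 in WKY rats. In CAF-fed rats they were 8.14, 7.94, 7.75, 7.85 and 8.81 in LEW and 9.51, 9.82, 9.37, 9.55 and 9.61 in WKY rats. Every WKY rat was above every LEW rat, and the LEW rat nearest to them was CAF-fed rat 5. Expression was 3.44-fold higher in WKY rats on STD (log2 difference 1.78, SE 0.16, adjusted p = 2.91e-07) and 2.78-fold higher on CAF (1.47, SE 0.16, adjusted p = 3.97e-06). This call held under every alternative fit and without each rat in turn, on both diets, with a log2 difference of 1.485 to 2.025 on STD and of 1.29 to 1.66 on CAF. With the neutrophil score in the model it was 1.485 (adjusted p = 0.0068) on STD and 1.29 (adjusted p = 8.77e-04) on CAF.

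Tnfsf12 encodes TWEAK, a ligand of monocytes and macrophages that acts in tissue repair and inflammation. The signals in STD-fed rats 1 to 5 were 8.10, 8.03, 8.06, 8.10 and 7.97 in LEW and 8.32, 8.41, 8.49, 8.57 and 8.36 in WKY rats. Those in CAF-fed rats were 8.33, 8.13, 8.21, 7.99 and 8.30 in LEW and 8.31, 8.31, 8.17, 8.12 and 8.30 in WKY rats. The strains were apart on STD and overlapped on CAF. The difference on STD was 0.37 (SE 0.06, 1.29-fold, adjusted p = 4.43e-04), and that on CAF was 0.05 (95% interval -0.08 to 0.18, adjusted p = 0.783). The change in the strain difference between the diets was -0.32 (SE 0.09, unadjusted p = 0.0019), which did not pass adjustment (adjusted p = 0.707). The call on STD was lost with the NK cell score (0.42, adjusted p = 0.334) or the neutrophil score (0.36, adjusted p = 0.163) in the model, while the difference stayed in size.

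The other 11 ligands did not pass the test between the strains on either diet. Their differences ran from -0.46 for Cd40lg to 0.28 for Faslg on STD and from -0.63 for Cd40lg to 0.26 for Tnfsf9 on CAF. Cd40lg encodes the T cell ligand of CD40, and its means were 9.92 ± 0.27 in LEW and 9.46 ± 0.58 in WKY rats on STD (adjusted p = 0.287) and 10.01 ± 0.56 and 9.37 ± 0.15 on CAF (adjusted p = 0.147). On CAF it was called lower without LEW rat 2, without the 4 arrays of high Hsph1 and with array weights. Ltb encodes lymphotoxin β, which forms membrane trimers with the product of Lta. On CAF its signals were 10.09, 10.09, 10.17, 10.17 and 10.10 in LEW and 10.38, 10.47, 10.20, 10.23 and 10.27 in WKY rats. The strains did not overlap, yet the difference was 0.19 (SE 0.09, adjusted p = 0.251). Cd70, the T cell costimulatory ligand of CD27, differed by -0.15 on CAF (adjusted p = 0.073) and by -0.02 on STD. Of the B cell survival factors, Tnfsf13b (BAFF) differed by 0.02 on STD (95% interval -0.10 to 0.15). For Tnfsf13 (APRIL) the difference was 0.09 on STD (95% interval -0.25 to 0.44) and -0.30 on CAF (95% interval -0.64 to 0.04).

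**Figure D2:**
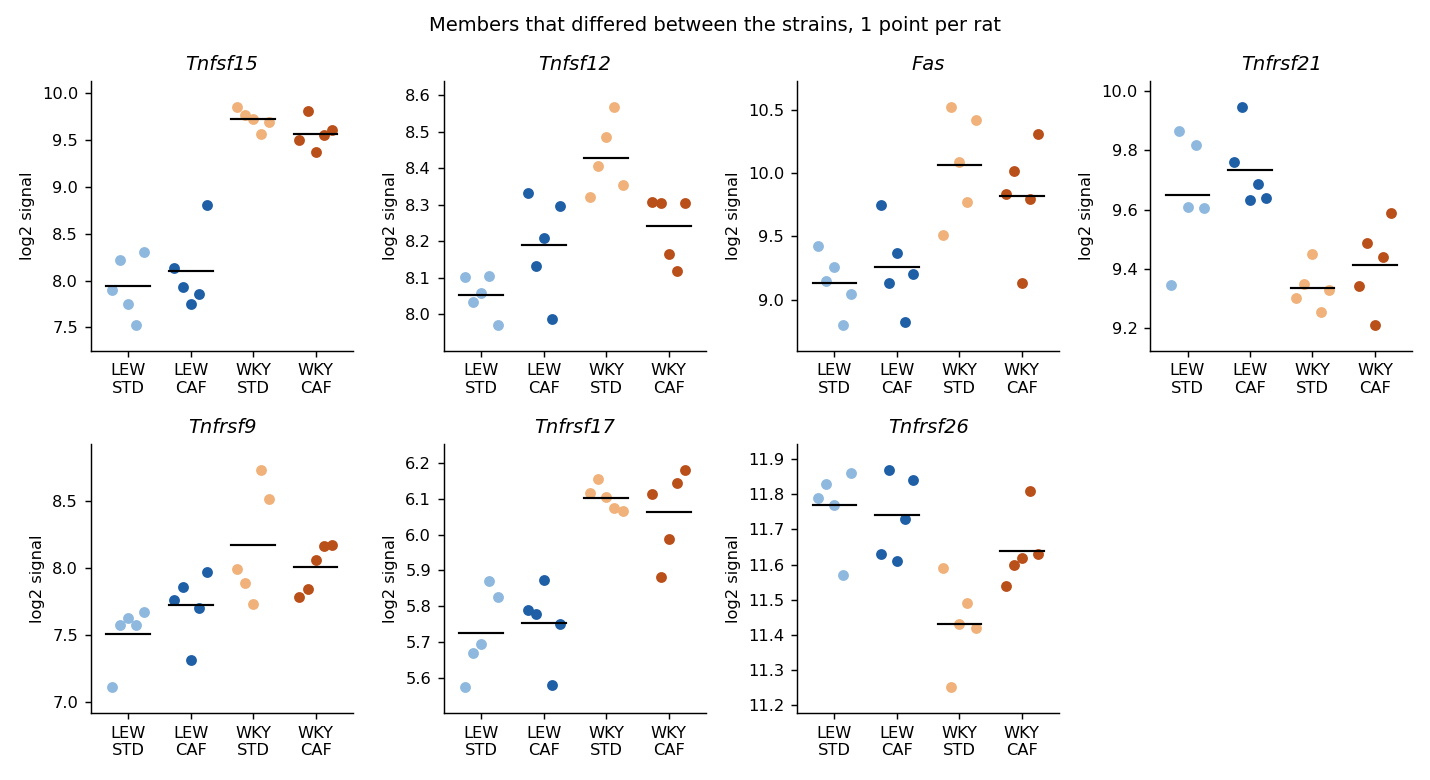
Log2 signal of the 7 genes called between the strains, with 1 point per rat (5 per group) and the group mean as a line; each panel has its own vertical axis, which does not start at 0. The groups of Tnfsf15 and Tnfrsf17 were apart by strain on both diets, whereas those of Fas, Tnfsf12, Tnfrsf9 and Tnfrsf26 overlapped on CAF.

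Of the 4 receptors with a death domain, Fas was higher and Tnfrsf21 lower in WKY rats. Fas is the receptor through which the Fas ligand triggers apoptosis of lymphocytes and other cells. The signals in STD-fed rats 1 to 5 were 9.43, 9.15, 9.26, 8.80 and 9.05 in LEW and 9.51, 10.52, 10.09, 9.77 and 10.42 in WKY rats. On CAF they were 9.75, 9.13, 9.37, 8.83 and 9.21 in LEW and 9.83, 10.02, 9.13, 9.79 and 10.31 in WKY rats. The strains did not overlap on STD, and on CAF only WKY rat 3 lay within the range of LEW rats. Fas was 1.90-fold higher on STD (0.93, SE 0.21, adjusted p = 0.0059), and the difference on CAF was 0.56 (SE 0.21, adjusted p = 0.128). Without CAF-fed WKY rat 3, the rat within the LEW range, the CAF difference was 0.73 (adjusted p = 0.028). Leaving out any other single rat gave no call on CAF. With the monocyte score in the model the CAF difference was 1.48 (adjusted p = 7.96e-04). With the T cell, B cell, NK cell or neutrophil score Fas was not called on CAF (adjusted p of 0.281 to 0.927). With the neutrophil score in the model the STD difference was 0.21 (adjusted p = 0.920), and with the monocyte score it was 1.35 (adjusted p = 1.96e-05). With the T cell score (0.34, adjusted p = 0.721) or the NK cell score (1.24, adjusted p = 0.408) the call was also lost. On STD these scores did not overlap between the strains, so a call lost with them cannot be assigned to cell types. The part of these cell types in the Fas difference was not tested further.

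Tnfrsf21 encodes death receptor 6. In STD-fed rats 1 to 5 its signals were 9.35, 9.86, 9.61, 9.82 and 9.61 in LEW and 9.30, 9.35, 9.45, 9.26 and 9.33 in WKY rats. In CAF-fed rats they were 9.76, 9.95, 9.63, 9.69 and 9.64 in LEW and 9.34, 9.49, 9.21, 9.44 and 9.59 in WKY rats. On STD LEW rat 1 lay among the WKY rats, and on CAF the strains did not overlap. The difference was -0.31 on STD (SE 0.09, 1.24-fold, adjusted p = 0.024) and -0.32 on CAF (SE 0.09, 1.25-fold, adjusted p = 0.028). Single rats decided both calls. The STD call was lost without LEW rat 2 or 4 or WKY rat 4 or 5 (adjusted p of 0.051 to 0.069), and the CAF call without LEW rat 1 or 2 or WKY rat 1 or 3 (adjusted p of 0.060 to 0.081). Without the 4 arrays of high Hsph1 the differences were -0.24 (adjusted p = 0.139) and -0.27 (adjusted p = 0.075). With the monocyte score in the model they were -0.19 (adjusted p = 0.209) and -0.06 (adjusted p = 0.881). With the T cell score they were larger, at -0.64 (adjusted p = 0.0014) and -0.53 (adjusted p = 0.00059). The NK cell score gave -0.61 (adjusted p = 0.227) and -0.55 (adjusted p = 0.110), and the neutrophil score -0.53 (adjusted p = 0.076) and -0.45 (adjusted p = 0.021). The B cell score gave -0.30 (adjusted p = 0.061) and -0.33 (adjusted p = 0.043). With only the 2 groups of each comparison fitted, the adjusted p was 0.054 on STD and 0.031 on CAF.

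The other 2 death domain receptors were not called. Tnfrsf1a encodes TNF receptor 1, the main receptor for soluble TNF. It differed by 0.33 on STD (95% interval 0.02 to 0.65, adjusted p = 0.188) and by -0.08 on CAF (95% interval -0.40 to 0.23). Tnfrsf10b differed by -0.07 and 0.01, with intervals that stayed within -0.17 and 0.11 on both diets.

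Among the 11 receptors without a death domain, Tnfrsf17 was higher in WKY rats on both diets and Tnfrsf9 on STD. Tnfrsf17 encodes BCMA, a receptor of plasma cells and late B cells for BAFF and APRIL. In STD-fed rats 1 to 5 its signals were 5.57, 5.67, 5.69, 5.87 and 5.83 in LEW and 6.12, 6.16, 6.11, 6.07 and 6.07 in WKY rats. On CAF they were 5.79, 5.78, 5.87, 5.58 and 5.75 in LEW and 6.11, 5.88, 5.99, 6.14 and 6.18 in WKY rats. No WKY rat overlapped the LEW rats of its diet, and on CAF the nearest pair was 5.87 and 5.88. The difference was 0.38 on STD (SE 0.07, 1.30-fold, adjusted p = 5.12e-04) and 0.31 on CAF (SE 0.07, 1.24-fold, adjusted p = 0.0046). Its mean signal was above that of 33.02% of all probe sets. Other plasma cell markers moved with it: 4 of 6 measured on STD and 3 of 6 on CAF were higher in WKY rats, Tnfrsf17 among them, and the score over the other 5 ran from -0.50 to -0.18 in STD-fed LEW and from 0.13 to 0.57 in STD-fed WKY rats. On CAF that score ran from -0.53 to -0.10 and from 0.14 to 0.40. The part of plasma cells in the difference was not tested. Both calls were lost with the T cell, NK cell or neutrophil score in the model, where the difference was 0.27 to 0.34 on STD and 0.24 to 0.28 on CAF.

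Tnfrsf9 encodes 4-1BB (CD137), a costimulatory receptor of activated T cells and NK cells. In STD-fed rats 1 to 5 the signals were 7.11, 7.58, 7.63, 7.57 and 7.67 in LEW and 7.99, 7.89, 7.74, 8.74 and 8.52 in WKY rats. In CAF-fed rats they were 7.76, 7.86, 7.32, 7.70 and 7.97 in LEW and 7.79, 7.85, 8.07, 8.16 and 8.18 in WKY rats. WKY rats 4 and 5 were the highest on STD, and the strains overlapped on CAF. The difference was 0.66 on STD (SE 0.17, 1.58-fold, adjusted p = 0.012) and 0.28 on CAF (SE 0.17, adjusted p = 0.399). With the NK cell score in the model the STD difference was -0.14 (adjusted p = 0.971), and with the neutrophil, T cell or monocyte score it was 0.45 to 0.57 (adjusted p of 0.081 to 0.701).

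The remaining 9 receptors without a death domain were not called on either diet. Their differences ran from -0.21 for Tnfrsf8 to 0.19 for Tnfrsf1b on STD, and from -0.29 for Tnfrsf8 to 0.11 for Cd40 on CAF. Tnfrsf8 encodes CD30, a receptor of activated lymphocytes, and the CAF difference had an adjusted p of 0.084. The receptor for lymphotoxin, Ltbr, differed by 0.08 on STD and by -0.24 on CAF (adjusted p = 0.144). Cd40, through which B cells and monocytes receive T cell help, differed by -0.19 and 0.11, with 95% intervals of -0.52 to 0.15 and -0.22 to 0.45. Tnfrsf18 (GITR), Tnfrsf14 (HVEM) and Tnfrsf19 had differences of -0.10 to 0.05 on both diets.

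Tnfrsf26, a family member described in rodents, was lower in STD-fed WKY rats. The signals in STD-fed rats 1 to 5 were 11.79, 11.83, 11.77, 11.57 and 11.86 in LEW and 11.59, 11.25, 11.43, 11.49 and 11.42 in WKY rats. On CAF the signals were 11.63, 11.87, 11.61, 11.73 and 11.84 in LEW and 11.54, 11.60, 11.62, 11.81 and 11.63 in WKY rats. On STD only LEW rat 4 and WKY rat 1 crossed, and on CAF the groups overlapped widely. The difference was -0.33 on STD (SE 0.07, 1.26-fold, adjusted p = 0.0038) and -0.10 on CAF (SE 0.07, adjusted p = 0.539). The STD call was lost with the T cell, NK cell or neutrophil score in the model, with differences of -0.37 to -0.29. The decoy receptor gene Tnfrsf11b, whose product osteoprotegerin binds RANKL, differed by 0.09 on STD and 0.01 on CAF and was not called.

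The measured partners of the called genes were not called, including the BCMA ligand genes Tnfsf13 and Tnfsf13b given above. Faslg, which encodes the Fas ligand of cytotoxic T cells and NK cells, differed by 0.28 on STD (95% interval -0.19 to 0.75) and by -0.01 on CAF (95% interval -0.48 to 0.45). Tnfsf9, which encodes the 4-1BB ligand, differed by 0.23 and 0.26 (adjusted p = 0.379 and 0.389). It was called higher on both diets once the 4 arrays of high Hsph1 were left out. Tnfrsf12a encodes Fn14, the TWEAK receptor, and differed by 0.13 and 0.06, with 95% intervals of -0.24 to 0.51 and -0.32 to 0.43.

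Of the family genes, 8 lie next to another one or to Tnf in the RefSeq order of protein-coding genes. The neighbours Tnfsf13 and Tnfsf12 differed by 0.09 and 0.37 between the strains on STD. Lta and Ltb lie on either side of Tnf, and on STD they differed by 0.03 and 0.15 where Tnf differed by 1.10. The pair Tnfrsf4 and Tnfrsf18 differed by -0.13 and 0.03, and the pair Tnfrsf1b and Tnfrsf8 by 0.19 and -0.21.

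The diets were then compared within each strain. Not 1 of the 30 genes passed the test between CAF and STD in LEW rats (0% of all probe sets were called) or in WKY rats (0% of all), and none passed for the interaction, the diet difference in WKY minus that in LEW rats (0% of all). The smallest adjusted p by limma was 0.911 in LEW and 0.369 in WKY rats. At an unadjusted p under 0.05 there was 1 gene in LEW rats (5.46% of all), 4 in WKY rats (8.81% of all) and 3 for the interaction (5.95% of all). The groups of LEW rats overlapped for all 30 genes (0.989% of all probe sets did not overlap), and those of WKY rats were apart for 3 genes (2.07% of all).

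In LEW rats the differences ran from -0.19 for Tnfsf10, which encodes TRAIL, to 0.25 for Tnfsf11, with a median of 0.03. In WKY rats they ran from -0.41 for Tnfrsf1a to 0.31 for Cd40, with a median of -0.10 against -0.0084 over all probe sets. By sign alone, 22 of the 30 genes were higher on CAF in LEW rats, against 47.63% of all probe sets. In WKY rats 6 of the 30 genes were higher on CAF, against 45.75% of all probe sets, and 24 were lower, all 13 ligands among them. The ligand differences there ran from -0.39 for Tnfsf13 to -0.02 for Ltb. Both diet comparisons share their arrays with the strain comparisons, so these signs are no separate evidence. The 30 genes were measured in the same rats, so their signs are not independent of each other. The monocyte score ran from -0.20 to 0.06 in STD-fed and from -0.54 to -0.02 in CAF-fed WKY rats, and its part in these values was not tested.

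The 4 genes below that unadjusted limit in WKY rats were Tnfsf12 (log2 difference -0.19), Tnfrsf26 (0.20), Tnfrsf1a (-0.41) and Tnfsf13 (-0.39), with adjusted p of 0.369 to 0.503. Tnfsf12 was also the gene in LEW rats, with the opposite sign (0.14, adjusted p = 0.911), and the 3 genes of the interaction were Tnfsf12, Ltbr and Tnfrsf26. The 3 genes whose WKY groups did not overlap were Cd40, Tnfrsf8 and Tnfsf12. For Cd40 the signals of WKY rats were 10.17, 10.14, 10.29, 9.99 and 10.03 on STD and 10.35, 10.48, 10.41, 10.45 and 10.45 on CAF. The difference was 0.31 (SE 0.16, adjusted p = 0.612), and LEW rats on both diets spread from 9.84 to 10.77. For Tnfrsf8 the signals of WKY rats were 6.15 to 6.34 on STD and 6.001 to 6.14 on CAF, a difference of -0.16 (adjusted p = 0.682). The 95% interval of the diet difference lay within 1.5-fold in either direction for 28 of the 30 genes in LEW rats and for 22 in WKY rats, against 97.42% and 96.51% of all probe sets. For the other genes the interval did not exclude a difference of over 1.5-fold.

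**Figure D3:**
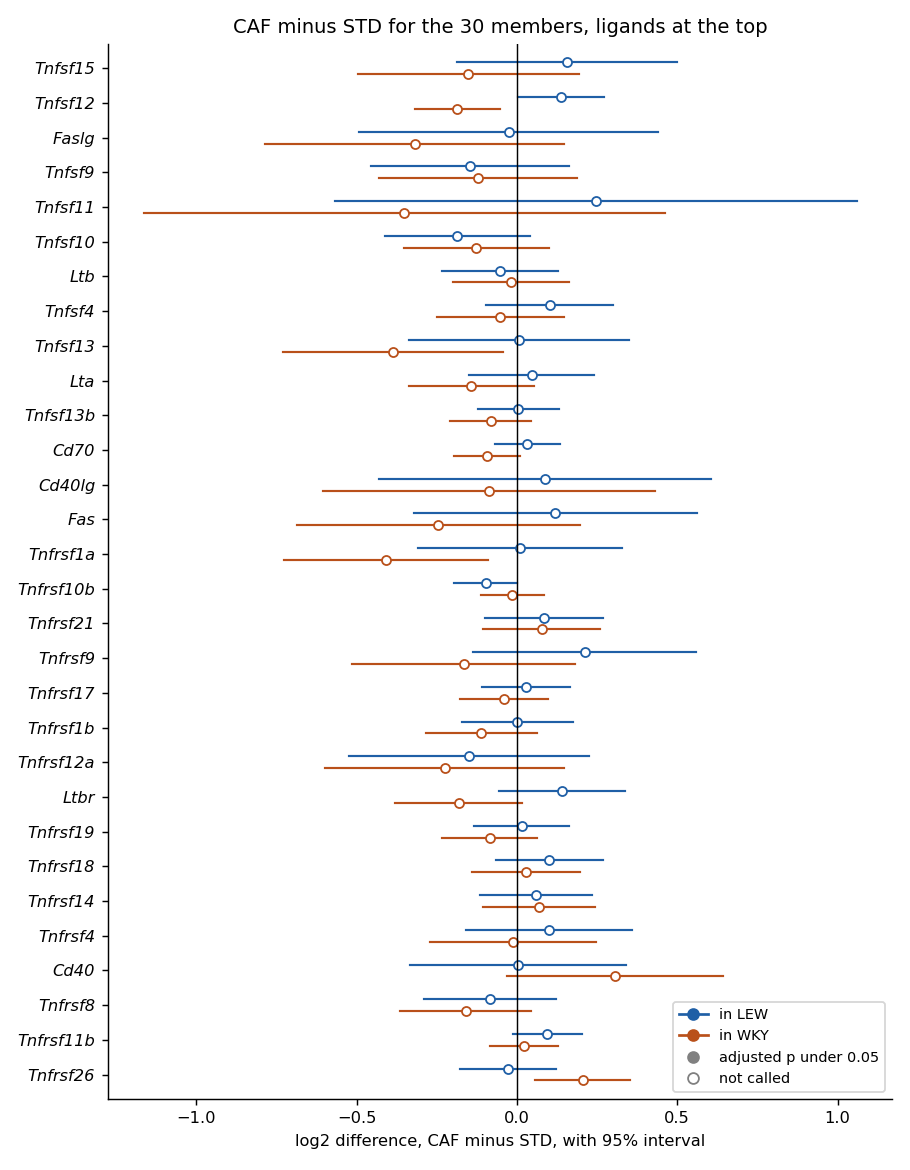
Log2 difference, CAF minus STD, of each of the 30 genes in LEW (blue) and WKY rats (orange), with 95% intervals; all points are open because none passed an adjusted p of 0.05. The widest intervals belong to Tnfsf11, at 0.25 in LEW and -0.35 in WKY rats.

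The family differed in how much the genes varied between rats of 1 group. The SD within groups was 0.68 for Tnfsf11, the largest of the 30, 0.43 for Cd40lg, 0.39 for Faslg and 0.37 for Fas. It was lowest, at 0.07, for Tnfrsf10b, which also had the lowest mean signal. Tnfsf11 encodes RANKL, which drives osteoclast formation and is also made by activated T cells. Its signals in STD-fed rats 1 to 5 were 7.55, 7.99, 7.78, 8.45 and 8.82 in LEW and 8.01, 7.77, 7.68, 10.01 and 8.25 in WKY rats. On CAF the values were 8.04, 7.45, 8.14, 8.92 and 9.29 in LEW and 8.03, 7.41, 8.42, 8.10 and 7.997 in WKY rats. STD-fed WKY rat 4 stood above all others, and it also had the highest signals of its group for Cd40lg (10.36), Faslg (9.41), Tnfrsf9 (8.74), Tnfrsf4 (9.56) and Lta (7.25). Its T cell score of 0.02 was the highest of the STD-fed WKY rats, which ran from -0.22. In CAF-fed WKY rats, rat 3 was highest for both the T cell score (0.009) and Tnfsf11. In STD-fed LEW rats, rat 1 had the highest T cell score (0.22) and the lowest Tnfsf11 signal. In CAF-fed LEW rats, rat 4 had the highest T cell score (0.12) and rat 5 the highest Tnfsf11 signal. In LEW rats the highest Tnfsf11 signals, of STD-fed rat 5 and CAF-fed rats 4 and 5, came with the highest Cd40lg signals of their groups (10.36, 10.62 and 10.44). The same 3 rats had the lowest Cd40 signals of their groups (9.84, 9.93 and 9.90). These patterns are descriptions of single rats, chosen after the values were seen.

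**Figure D4:**
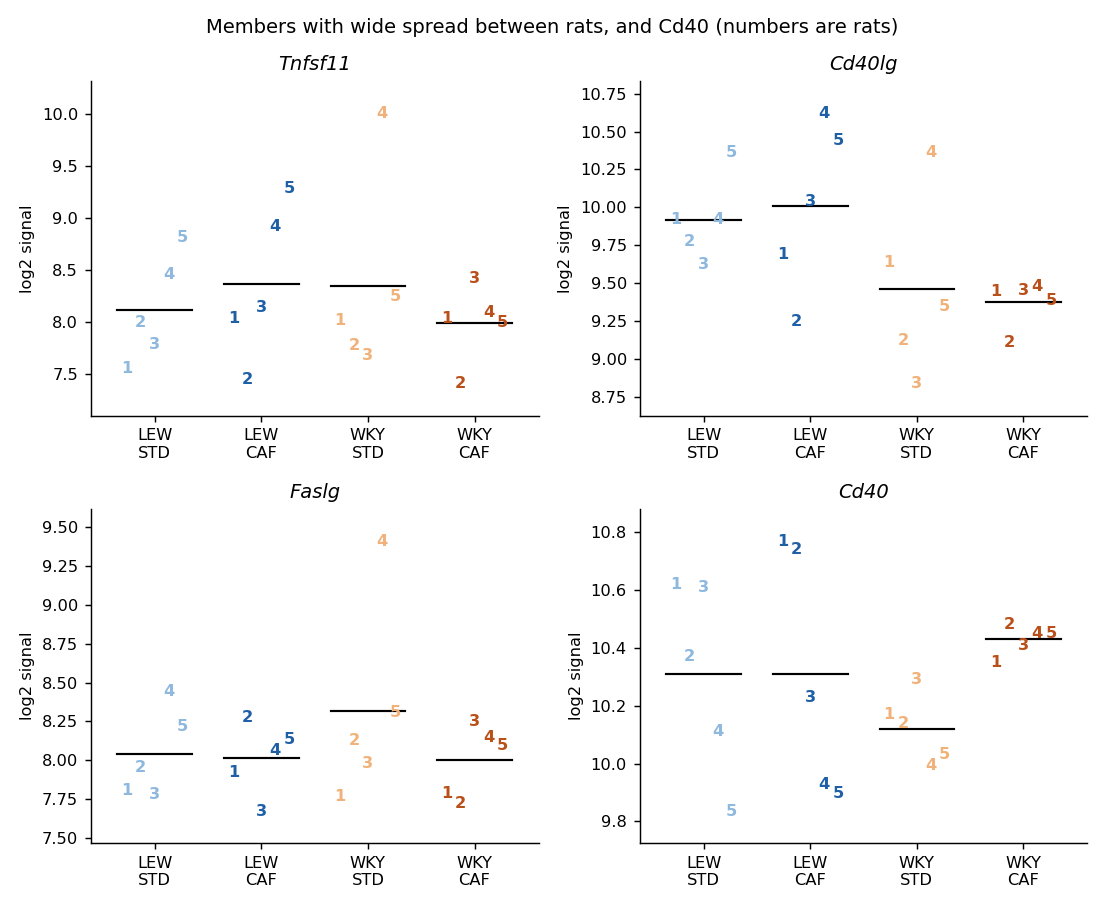
Log2 signal of Tnfsf11, Cd40lg, Faslg and Cd40 in each rat, shown by its number within the group, with the group mean as a line; each panel has its own vertical axis, which does not start at 0. STD-fed WKY rat 4 is highest for Tnfsf11 (10.01) and Faslg (9.41), and CAF-fed WKY rats lie close together for Cd40.

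Other genes of the pathway were taken from a list of 50, of which 40 had a probe set of a single symbol: Tnf, further receptors, adaptors, caspase regulators, NF-κB components and proteases that shed ligands. Of the 40, 15 were higher and 5 lower in WKY rats on STD, and 20 did not pass, against 5.88% of all probe sets higher and 5.38% lower. On CAF 8 were higher, 2 lower and 30 did not pass, against 4.24% and 3.34% of all. Their median difference was 0.11 on STD and 0.12 on CAF. Between the diets 0 of the 40 passed by limma in either strain, with 2 at an unadjusted p under 0.05 in LEW and 7 in WKY rats (5.46% and 8.81% of all probe sets). All 40 lie above the median mean signal. Of the 14413 probe sets there, tested alone, 1426 were higher and 1532 lower in WKY rats on STD, and 1153 and 905 on CAF. The list was chosen with earlier results of these data known, so its counts are descriptions only.

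The 10 genes called on both diets had the same sign on each. Over all probe sets 3247 were called on STD, and 1528 of these were called on CAF too with the same sign. Tnf encodes tumour necrosis factor, the founding ligand, and its signals in STD-fed rats 1 to 5 were 12.55, 12.15, 12.11, 11.71 and 12.07 in LEW and 13.31, 13.42, 13.15, 13.03 and 13.18 in WKY rats. It was 2.14-fold higher in WKY rats on STD (1.10, SE 0.17, adjusted p = 1.74e-04), and on CAF it also had no overlap between the strains. Cd27, the receptor of CD70 on T cells and B cells, was lower in WKY rats, by -0.52 on STD (adjusted p = 0.035) and by -0.81 on CAF (adjusted p = 0.0020). Its ligand gene Cd70 and the T cell ligand gene Cd40lg also had negative values on both diets, without passing the test. Of the cell death regulators, Ripk3, the necroptosis kinase, differed by 0.57 and 0.58 (adjusted p = 0.0035 and 0.0042), and Cflar, whose product FLIP restrains caspase-8, by 0.53 and 0.30 (adjusted p = 2.32e-04 and 0.038). The death domain kinase gene Ripk1 differed by 0.23 and 0.16, and the adaptor gene Tradd by 0.29 and 0.28. In the NF-κB part, Nfkb2, the precursor of the non-canonical pathway, was higher by 0.50 and 0.43, and Nfkbia, which encodes the inhibitor IκBα, by 0.49 and 0.38. Map3k14, which encodes the kinase NIK that starts the non-canonical pathway, was lower by -0.31 and -0.26. Adam17, the protease that sheds TNF and both of its receptors, was higher by 0.44 and 0.28 (adjusted p = 2.59e-04 and 0.016).

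**Figure D5:**
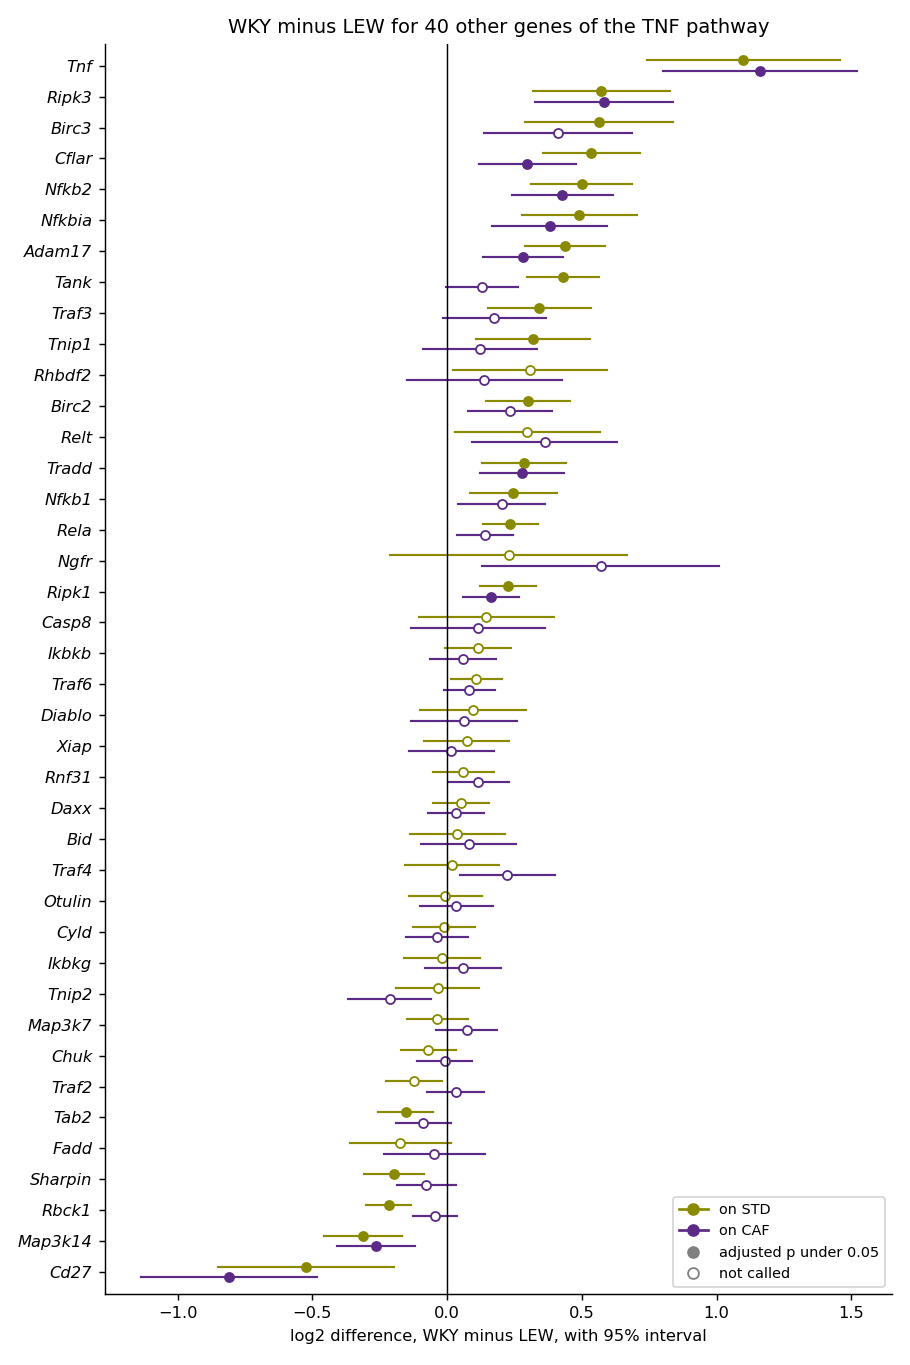
Log2 difference, WKY minus LEW, of the 40 other genes of the TNF pathway on STD (olive) and on CAF (purple), with 95% intervals; filled points passed an adjusted p of 0.05. Tnf is at the top with 1.10 and 1.16, and Cd27 at the bottom with -0.52 and -0.81.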

How the data were processed

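Blood cell RNA of 20 rats was measured on 1 array each. A single deposited table holds log2 signals of 28826 probe sets, which the authors had normalised between arrays. The methods name RMA for this and the submitters' notes MAS5, with no version. Signals lay between 3.57 and 14.37, with array medians of 6.83 to 6.90, and were used as deposited. Groups came from the sample titles. The highest correlation between 2 arrays was 0.997 across probe sets.

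Platform annotation listed 15515 probe sets, 306 of them under several symbols; 15209 had a single symbol, of which 15178 were found in RefSeq. The family genes and all lists were chosen with earlier results of these data known.

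Strains and diets were compared by limma (3.58.1, under R 4.3.3) in a model of 4 group means over the 20 arrays. It had 16 residual degrees of freedom and a prior worth 3.67, and P-values were adjusted over the whole table by the method of Benjamini and Hochberg. The median SE of a strain difference was 0.07, and the number of arrays limits the precision. P-values measure the spread between rats. The code was tested on simulated data. Named were all called family genes, their partners, the highest and lowest in signal, and pathway genes called in both strain comparisons; other named genes were chosen after the values were seen. Marker scores used 9 lists and left out any family gene. Alternatives covered scaling, filtering, the prior variance, the arrays fitted, array weights, a replicate block, 5 marker scores as covariates, each rat left out and, added after the data were seen, the 4 arrays of high Hsph1 left out. Promoter windows were matched for 21 of the 30 genes.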

Additional observations from a re-analysis of the deposited data

Results flagged for a closer look

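In 8 of the 120 groups of 5 examined (30 genes in 4 groups), 1 rat lay farther from the others than Dixon's criterion at 95% allows, where chance gives about 1 group in 20. Among STD-fed WKY rats, rat 4 was the highest for Tnfsf11, at 10.01 with the others at 7.68 to 8.25, and the lowest for Ltb, at 9.97 with the others at 10.38 to 10.47. Rat 1 of that group was the lowest for Tnfrsf1b, at 12.71 with the others at 12.89 to 12.97, and it is 1 of the 4 arrays of high Hsph1. Among STD-fed LEW rats, rat 1 was the lowest for Tnfrsf9, at 7.11 with the others at 7.57 to 7.67, and rat 4 the highest for Tnfsf10, at 6.75 with the others at 6.36 to 6.44. Among CAF-fed LEW rats, rat 3 was the highest for Cd70, at 6.08 with the others at 5.96 to 5.99, and rat 4 the lowest for Ltbr, at 7.26 with the others at 7.49 to 7.57. Among CAF-fed WKY rats, rat 2 was the lowest for Cd40lg, at 9.11 with the others at 9.38 to 9.48.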

How the results depend on the processing

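The counts of family genes between the strains were 5 higher and 2 lower in WKY rats on STD, and 2 higher and 1 lower on CAF. Centring or quantile normalisation of the arrays and an intensity trend in the prior left these counts and the genes behind them as they were. On STD the higher count was 2 with the T cell score in the model, 1 with the NK cell score and 1 with the neutrophil score, where 395, 105 and 261 of all probe sets were called higher. It was 6 with the monocyte score (Tnfrsf1a and Tnfrsf1b in, Tnfrsf9 out) and 6 with the B cell score (Tnfsf9 in). Over all probe sets 1626 and 1550 were then called higher. The lower count was 1 with the groups of the comparison fitted alone, with the monocyte, T cell or B cell score and without the 4 arrays of high Hsph1, and 0 with the NK cell or neutrophil score. Over all probe sets 1083 were called lower with the groups fitted alone, 1673 with the monocyte score and 1461 with the B cell score. The T cell, NK cell and neutrophil scores gave 339, 85 and 186, and leaving out the 4 arrays gave 1479. On CAF the higher count was 1 among probe sets above the median signal and with the T cell, NK cell or neutrophil score. Over all probe sets these scores gave 634, 255 and 562 called higher, against 1223 with no score. Of the 14413 probe sets above the median signal 1153 were called higher. With the monocyte score Fas was called higher on CAF as well. The lower count was 4 with array weights (Cd40lg, Cd70, Tnfrsf21 and Tnfrsf8), 2 with the B cell score, and 0 with the monocyte or NK cell score. Over all probe sets 1478 were called lower with array weights and 830 with the B cell score. The monocyte and NK cell scores gave 548 and 174, against 962 with neither weights nor score. Over the rats left out in turn, the counts ran from 5 to 6 and from 1 to 2 on STD and from 2 to 3 and from 0 to 2 on CAF, where leaving out LEW rat 1 or WKY rat 1 or 3 gave 0 lower, LEW rat 2 gave Cd40lg in place of Tnfrsf21, LEW rat 4 added Tnfrsf8 and WKY rat 5 added Cd70. The cause was not tested. Tnfrsf9 on STD changed sign with the NK cell score (-0.14, adjusted p = 0.971). Diet and interaction counts of family genes were 0 under all alternatives run, and the interaction was not fitted with only the groups of a comparison. Each family gene has 1 probe set, so another choice of probe set could not be made. Replicate numbers did not pair the rats (correlations of -0.18 to 0.43, over 0.1 in 9 of 30 pairs). A replicate block gave 5 and 2 on STD and 2 and 1 on CAF. Over all probe sets, calls on STD were 1695 higher and 1552 lower, and 1404 and 1960 with arrays centred on their median.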
